A study of Mus musculus with 3 samples.

Results

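Genes of the cell division cycle were read on 3 single-colour arrays of mouse cells labelled as embryonic stem cells, 1 wildtype, 1 LIFR KO and 1 gp130 KO. The LIFR protein binds the cytokine LIF, and gp130, the product of Il6st, is the subunit with which it signals. The array hybridised total RNA, extracted with Trizol and labelled with Cy3. The list held 46 genes, chosen by name for their known place in the cycle, of 20659 genes that could be named on the array, and they were read by 63 of its probes. A gene was read from its brightest probe. It comprised 22 genes of the passage from G1 into S phase (G1/S), 16 genes of G2 and mitosis (G2/M), the D-type cyclins with Cdk4, 4 genes, and 4 genes of inhibitors of cyclin-dependent kinases. All groups were grown under what the labels call standard conditions, and no clone number, passage, strain or medium is given in the sources used here. With 1 array for each genotype there was no replicate and no test, so each difference is one between 2 arrays.

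The cycle is driven by cyclin-dependent kinases (CDKs), whose cyclin partners are made and destroyed in turn. D-type cyclins with Cdk4 answer to growth signals in G1 and, with cyclin E and Cdk2, release E2F transcription factors that switch on the genes of DNA replication. Later, FOXM1 and the B-MYB protein complexes switch on the genes of mitosis, while inhibitors such as p27, the product of Cdkn1b, hold the kinases back. Mouse embryonic stem cells are known for a short G1 phase and fast division.

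The values are normalised signals, the scanner's brightness of a probe scaled so that the 75th percentile of each array is 638. Repeated spots of 1 probe scattered little, by 0.0538 (log2, median SD) on the wildtype, 0.0498 on the LIFR KO and 0.0544 on the gp130 KO array, which gives a ratio of 2 spots a 95% half-width of 0.146, or 1.11-fold. The scanner's own error model is wider, with an error of 0.204 on the log2 scale for the ratio of a typical member. Neither holds the spread between cultures. On the wildtype, LIFR KO and gp130 KO arrays, 64.3%, 58.3% and 65.5% of the probes were well above background. Lifr and Il6st, the genes named in the genotypes, did not set the arrays apart. The brightest Lifr probe gave 35.7 on the wildtype and 27.8 on the LIFR KO array, and Il6st gave 337 on the wildtype and 315 on the gp130 KO array. The sources used here do not say whether the probes read the part removed, so these values do not check the labels. Of 16 pluripotency markers 10 exceeded background clearly on each of the 3 arrays, and 5, Sox2, Zfp42, Dppa3, Fgf4 and Nr0b1, on none. Among the 10, Pou5f1 was the dimmest, at 31.9, 21.1 and 21.4 on the wildtype, LIFR KO and gp130 KO arrays. Klf2, among the brighter ones, gave 761, 918 and 489. All 10 epithelial markers were well above background on all 3 arrays. Of 9 fibroblast and feeder markers 4 were detected on all 3 arrays. The markers well above background on each array summed to 624, 784 and 782 on the wildtype, LIFR KO and gp130 KO arrays. Col3a1, Thy1 and Dcn entered these sums on the wildtype and gp130 KO arrays only, so the sums do not cover the same genes. The summed signal of the epithelial markers was 69136, 77306 and 74050, and that of the pluripotency markers 3506, 3393 and 3399. Tbx3 entered the pluripotency sums on the wildtype and gp130 KO arrays only. Of 3 blood markers on the array, Ptprc alone was detected on all 3 arrays, at 23.2, 18.1 and 20.0. The blood sums were 38.0, 18.1 and 40.4, with Hbb-bt entering only on the wildtype and gp130 KO arrays, at 14.8 and 20.4. The part of these marker signals in the results below was not tested.

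Of the 46 genes, 44 were well above background on all 3 arrays, including every G1/S, G2/M and D-type cyclin gene, and 2 on none. The missing pair were Cdkn2a, the gene of the inhibitor p16 and of the p53 activator ARF, and Cdkn2b, the gene of the inhibitor p15. Both Cdkn2a probes lay between 2.27 and 7.41 and both Cdkn2b probes between 2.43 and 3.8 over the 3 arrays, and no ratio is given for them. These genes are neighbours in the RefSeq annotation. Of the genes beside them, chosen after the values were seen, Mtap was detected at 6462, 5025 and 5492 on the wildtype, LIFR KO and gp130 KO arrays, and Dmrta1 was not above background on any. None of the 63 probes had a spot under the stray signal that covered part of the LIFR KO array.

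The promoters of the G1/S and G2/M genes differed in the share with each motif, which is given as a description. The search covered RefSeq promoters of GRCm38.p6, from 250 bases before to 50 bases after the annotated start, on both strands. It was made for the E2F site, in the forms TTTGGCGC, TTTGCCGC, TTTCGCGC and TTTCCCGC, the CHR element of genes of mitosis, TTTGAA, and the box bound by NF-Y, CCAAT. Promoters were held for 20 of the 22 G1/S genes and for 12 of the 16 G2/M genes. An E2F site was found in 9 of 22 G1/S promoters (40.9%) and in 1 of 12 G2/M promoters (8.33%), that of Cdk1, against 2.26% of all 32817 promoters. The CHR element stood in 8 of 12 G2/M promoters (66.7%) and in 3 of 22 G1/S promoters (13.6%), against 17.9% of all. The NF-Y box was in 91.7% of G2/M, 68.2% of G1/S and 37.4% of all promoters. In wider lists of cell cycle genes the E2F site stood in 37.3% of 51 promoters of other G1/S and S phase genes and in 4.48% of 67 promoters of other G2 and M phase genes, and the CHR element in 17.6% and 64.2%. A match is a run of letters and not a proven site, and E2F forms on opposite strands can overlap.

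**Figure D1:**
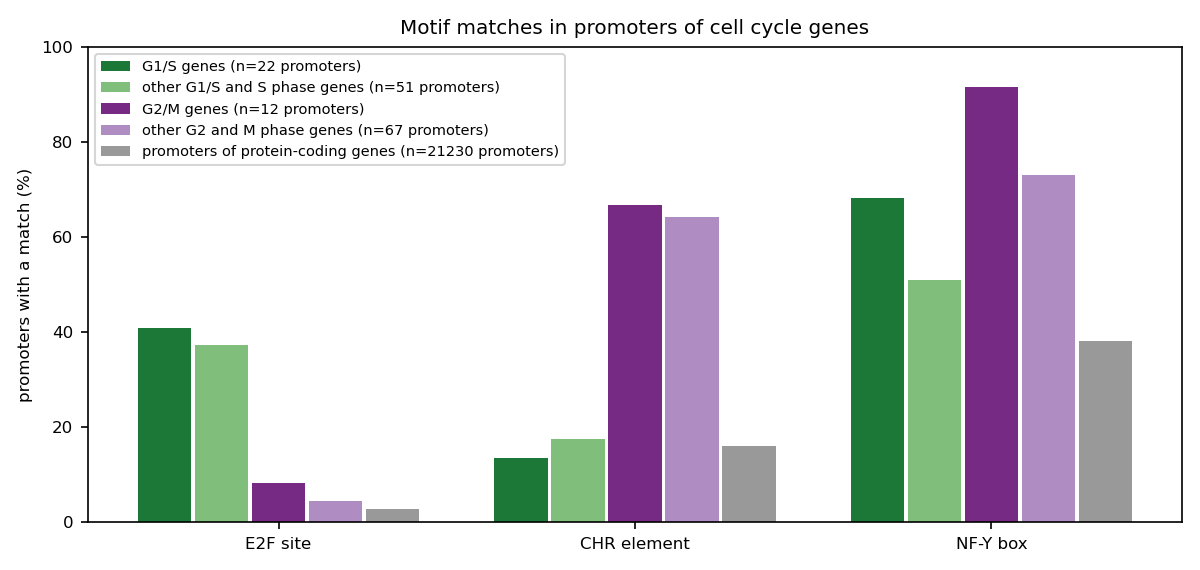
Share of promoters (%) with at least 1 match to each motif, for the G1/S and G2/M genes, the wider lists of each phase and all protein-coding genes. The E2F site was found in 40.9% of G1/S promoters and the CHR element in 66.7% of G2/M promoters, against 2.85% and 16% of protein-coding promoters.

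The 6 promoters below are examples of this contrast and do not stand for all promoters of their lists. Each is printed for the 120 bases before the annotated start, 5′ to 3′, with the matches to the motifs in capitals, those of the other strand as their reverse complement. Mcm6, a subunit of the replicative helicase, and Cdc25a, a phosphatase that activates CDKs, hold E2F sites and also NF-Y boxes. Among the G1/S promoters only theirs have an E2F match within the stretch shown. Cdk1, the kinase of mitosis, Cdc20, an activator of the anaphase-promoting complex, Top2a, a DNA topoisomerase, and Ccnb2, the gene of cyclin B2, hold CHR elements or NF-Y boxes, the CHR elements of Ccnb2 lying outside the stretch shown. The E2F site of Cdk1 also lies outside its stretch.
Mcm6, chr1:128359706-128359825, minus strand: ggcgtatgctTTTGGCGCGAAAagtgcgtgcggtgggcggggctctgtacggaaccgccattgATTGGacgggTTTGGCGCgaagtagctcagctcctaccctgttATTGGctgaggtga
Cdc25a, chr9:109875459-109875578, plus strand: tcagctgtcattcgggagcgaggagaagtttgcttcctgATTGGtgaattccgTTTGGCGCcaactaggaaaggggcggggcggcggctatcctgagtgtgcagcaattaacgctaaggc
Cdk1, chr10:69352913-69353032, minus strand: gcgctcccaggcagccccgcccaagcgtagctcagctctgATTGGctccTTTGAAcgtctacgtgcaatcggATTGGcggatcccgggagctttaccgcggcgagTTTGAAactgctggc
Cdc20, chr4:118437344-118437463, minus strand: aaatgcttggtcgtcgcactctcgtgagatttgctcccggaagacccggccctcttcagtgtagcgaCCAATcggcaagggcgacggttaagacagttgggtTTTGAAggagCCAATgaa
Top2a, chr11:99024190-99024309, minus strand: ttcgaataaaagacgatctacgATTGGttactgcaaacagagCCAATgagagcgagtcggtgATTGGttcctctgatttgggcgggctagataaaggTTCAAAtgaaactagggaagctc
Ccnb2, chr9:70421555-70421674, minus strand: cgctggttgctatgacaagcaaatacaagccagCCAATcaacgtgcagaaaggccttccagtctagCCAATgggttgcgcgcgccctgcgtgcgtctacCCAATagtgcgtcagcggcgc

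Against this division the first question was whether the phases shifted against each other in the knockouts. On the LIFR KO array the median log2 ratio to wildtype was 0.09 for the 22 G1/S genes and 0.14 for the 16 G2/M genes, a G1/S minus G2/M difference of -0.05. On the gp130 KO array the medians were 0.19 and 0.21, a difference of -0.03. With 1 array each, these differences have no replicate error to be read against. With quantile normalisation the LIFR KO medians were 0.01 and 0.06, and the authors' series matrix gave 0.02 and 0.06, so that their distance from 0 depends on the scaling. The medians of all genes compared were 0.00 and 0.04, and those of the genes in the brightness range of the members, the 10th to 90th percentile of their signal, were 0.06 and 0.06. In RNA from a whole culture, fewer cells in a phase and less RNA of its genes in each cell cannot be told apart.

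On the LIFR KO array 11 of the 44 measured members (25%) exceeded wildtype by 1.2-fold or more and 3 (6.82%) lay below it by as much, against 18.8% and 22.2% of all 14542 genes compared. In the brightness range of the members the shares of all genes were 20.6% and 10.6%, so the share of higher members lay near that of equally bright genes. At 1.5-fold in either direction stood 3 members, against 13.6% of all genes, and at 2-fold 1 member, E2f2, against 4.3%. With quantile normalisation and in the authors' series matrix the split was 8 higher and 8 lower, and with normexp background correction fitted on all spots it was 4 and 27. That fit takes in the stray signal on the LIFR KO array, and without those spots it gave 9 and 3. With all spots it also turned the LIFR KO ratios of 7 of the 11 higher members below 0, Ccnd3, Ccne1, Cdkn1b, Bub1, Ccna2, Cdc20 and Mki67, to -0.14, -0.02, -0.03, -0.10, -0.27, -0.25 and -0.25, and only 15 of 44 members kept their sign over all settings.

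On the gp130 KO array 11 members (25%) exceeded wildtype by 1.2-fold or more and 3 (6.82%) lay below it by as much, against 15.9% and 13.0% of all 14915 genes compared. In the brightness range of the members the shares were 11.9% and 7.31%. Past 1.5-fold in either direction stood 2 members, against 6.59% of all genes, and past 2-fold none, against 1.78%. With quantile normalisation 6 members were higher and 3 lower. Of the measured members 35 of 44 had a ratio above 0 on this array and 31 of 44 on the LIFR KO array, where 56.6% and 47.2% of all genes did, and 62.6% and 61.1% of the genes in the brightness range of the members. Both comparisons share the wildtype array.

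**Figure D2:**
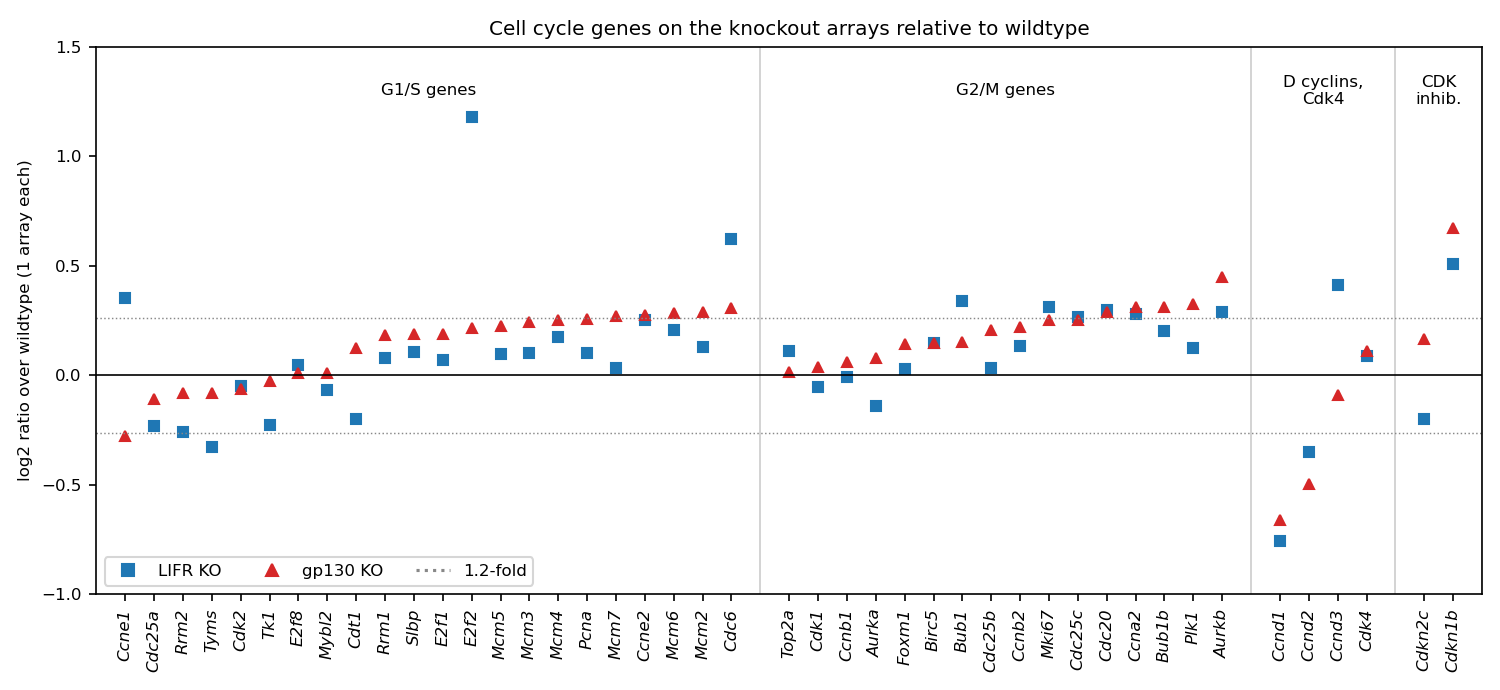
log2 ratio over wildtype of the 44 measured members on the LIFR KO (squares) and gp130 KO (triangles) arrays, by role and then in the order of the gp130 KO values, with dotted lines at 1.2-fold; 1 array each. E2f2 stands at 1.18 on the LIFR KO array, Ccnd1 at -0.76 and -0.66, and Cdkn1b at 0.51 and 0.67.

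The D-type cyclins, which carry growth signals into the cycle, held the largest decreases among the measured members. Ccnd1, the gene of cyclin D1, was read at 10977 in wildtype, at 6491 in LIFR KO and at 6941 in gp130 KO cells. Both knockout values were below wildtype, 1.69-fold and 1.58-fold lower with log2 ratios of -0.76 and -0.66, and the sign held in all settings tried, from -1.26 to -0.75 and from -0.73 to -0.59. Ccnd2, the gene of cyclin D2, gave 1952, 1528 and 1381, 1.28-fold and 1.41-fold lower. Cyclin D3 went another way. Ccnd3 gave 3640, 4852 and 3419, so that only the LIFR KO array stood apart, 1.33-fold higher than wildtype. Its other probe gave a log2 ratio of 0.13 on the LIFR KO and -0.28 on the gp130 KO array, and the brighter 0.41 and -0.09. Cdk4, the partner of these cyclins, lay close together at 23052, 24523 and 24857.

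Cdkn1b, the gene of the inhibitor p27, lay higher on both knockout arrays. Its signal was 4385 on the wildtype, 6228 on the LIFR KO and 6991 on the gp130 KO array, 1.42-fold and 1.59-fold higher, with log2 ratios of 0.51 and 0.67, except that the first was -0.03 with normexp fitted on all spots. On the gp130 KO array this was the member farthest above wildtype. Cdkn2c, the gene of the inhibitor p18, gave 6177, 5386 and 6939, lowest on the LIFR KO array and highest on the gp130 KO array, with log2 ratios of -0.20 and 0.17 that lie within the scanner's error of 0.204.

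Among the transcription factors E2f2, an activator of S phase genes, stood alone. It gave 722 on the wildtype, 1635 on the LIFR KO and 839 on the gp130 KO array, so that the LIFR KO array was 2.27-fold higher while the gp130 KO array was 1.16-fold higher. Its log2 ratio on the LIFR KO array, 1.18, ranged from 0.79 to 1.19 over the settings tried. E2f1, another activator, gave 822, 863 and 936, and the repressor gene E2f8 gave 6071, 6279 and 6107. Neither moved past 1.2-fold. Mybl2, the gene of B-MYB, was split between its probes. The brighter probe had log2 ratios of -0.07 and 0.01 on the LIFR KO and gp130 KO arrays and the dimmer one 0.45 and 0.42, the widest disagreement between probes of any member. Foxm1, the factor of the mitotic programme, gave 2507, 2554 and 2771.

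**Figure D3:**
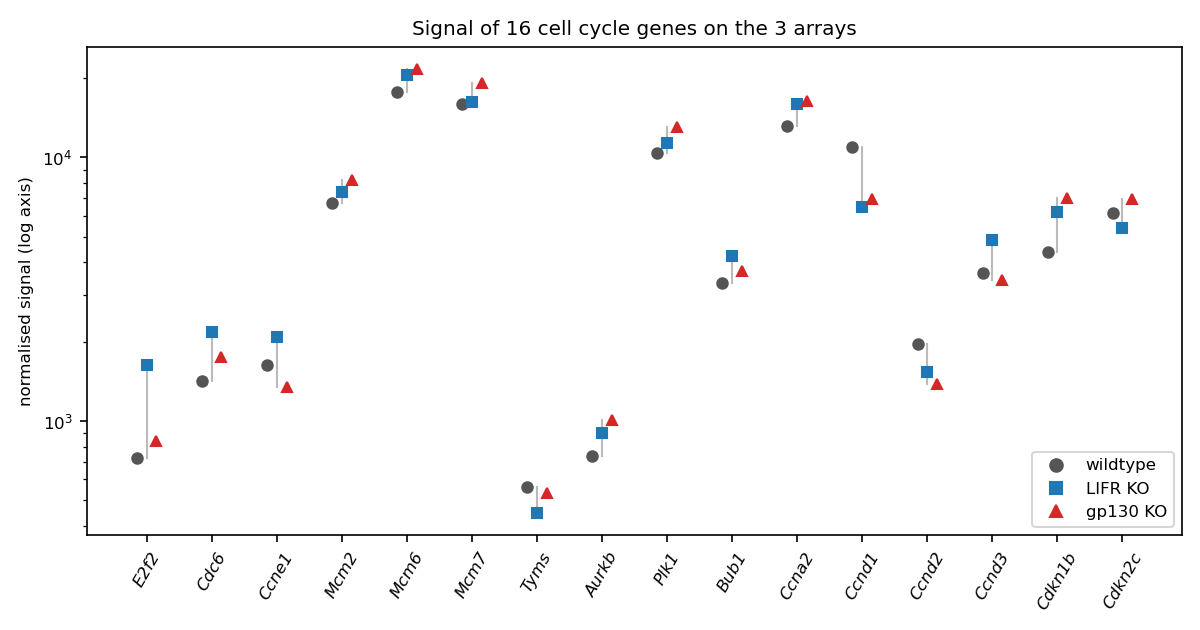
Normalised signal (log axis) of 16 members on the wildtype, LIFR KO and gp130 KO arrays, 1 point per array and a grey line over the range. Ccnd1 lies at 10977 on the wildtype array and at 6491 and 6941 on the knockout arrays, while E2f2 stands apart on the LIFR KO array at 1635.

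Origin licensing genes prepare DNA for replication. Cdc6, which loads the helicase onto origins, gave 1416 on the wildtype, 2177 on the LIFR KO and 1755 on the gp130 KO array, 1.54-fold and 1.24-fold higher. Its other probe had log2 ratios of 0.83 and 0.36 where the brighter one had 0.62 and 0.31. Cdt1, its partner in loading, gave 8589, 7469 and 9372, lowest on the LIFR KO array, with log2 ratios of -0.20 and 0.13.

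The helicase subunits Mcm2 to Mcm7 lay close together on the gp130 KO array. All 6 had ratios above 0 there, in a band from 0.23 to 0.29 with a median of 0.26, and all stayed above 0 under the other scalings and backgrounds tried. Mcm2 gave 6729, 7369 and 8233 on the wildtype, LIFR KO and gp130 KO arrays. Mcm6 gave 17775, 20508 and 21622. Mcm7 gave 15885, 16265 and 19138. In each of these the wildtype array was lowest and the gp130 KO array highest. Mcm3, Mcm4 and Mcm5 showed the same order, with log2 ratios of 0.24, 0.25 and 0.23 on the gp130 KO array. On the LIFR KO array all 6 ratios were above 0 as well, from 0.03 to 0.21, but Mcm7 was below 0 with quantile normalisation and in the authors' series matrix, and all 6 did with normexp fitted on all spots. Pcna, the sliding clamp of the polymerases, was close to the helicase genes at 17646, 18911 and 21092, with log2 ratios of 0.10 and 0.26. No helicase ratio exceeds the 95% limit of the scanner's error.

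Enzymes of nucleotide supply went the other way on the LIFR KO array. Tyms, thymidylate synthase, gave 563, 448 and 532, 1.26-fold lower on the LIFR KO array. Rrm2, the small subunit of ribonucleotide reductase, gave 17641, 14735 and 16667. Tk1, thymidine kinase, gave 19739, 16851 and 19381. All 3 were lowest on the LIFR KO array, with log2 ratios of -0.33, -0.26 and -0.23, against -0.08, -0.08 and -0.03 on the gp130 KO array. Rrm1, the large subunit, was higher on both, with log2 ratios of 0.08 and 0.18, except that the first was below 0 with normexp fitted on all spots. Slbp, which binds histone mRNA, gave 1948, 2099 and 2219.

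Of the E-type cyclin genes, that of E1 differed between the knockout arrays, while that of E2 lay close on them in the main setting. Ccne1, the gene of cyclin E1, gave 1627 on the wildtype, 2079 on the LIFR KO and 1343 on the gp130 KO array, so that it was highest on one knockout array and lowest on the other. It was 1.28-fold higher on the LIFR KO and 1.21-fold lower on the gp130 KO array, and its second probe gave log2 ratios of 0.34 and -0.19. Ccne2, the gene of cyclin E2, gave 208, 248 and 252, higher on both. Cdk2, their kinase, lay at 580, 561 and 556, and Cdc25a at 1328, 1129 and 1233.

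All 16 G2/M genes had ratios above 0 on the gp130 KO array, from 0.01 for Top2a to 0.45 for Aurkb, with 15 above 0 under normexp and 14 under quantile normalisation and in the authors' series matrix. On the LIFR KO array 13 of 16 did, from -0.14 for Aurka to 0.34 for Bub1, 11 of 16 with quantile normalisation and in the authors' series matrix and 2 of 16 with normexp fitted on all spots. Of the genes in the brightness range of the members, 62.6% had ratios above 0 on the gp130 KO and 61.1% on the LIFR KO array. Aurkb, a kinase of the chromosomal passenger complex, gave 737, 901 and 1007, 1.22-fold and 1.37-fold higher. Plk1, a kinase of mitotic entry, gave 10384, 11328 and 13004, with the gp130 KO array 1.25-fold higher. Bub1b, of the spindle checkpoint, gave 1886, 2171 and 2341. In these 3 the order of the arrays was wildtype, LIFR KO, gp130 KO. Aurka, a kinase of the spindle poles, gave 4131, 3742 and 4366.

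Cyclin A2, the cyclin of S and G2 phases, had larger ratios than the B-type cyclins of mitosis. Ccna2 gave 13136, 15943 and 16304, 1.21-fold and 1.24-fold higher. Ccnb2 gave 5534, 6065 and 6448, with log2 ratios of 0.13 and 0.22. Ccnb1, the gene of cyclin B1, gave 6188, 6150.1 and 6457, and Cdk1 gave 9533, 9187 and 9779. These last values differ by less than the half-width of a ratio, although the dimmest of the 3 Cdk1 probes had log2 ratios of 0.20 and 0.35. The dimmer Ccnb1 probes had log2 ratios of 0.00 and 0.07 on the LIFR KO array. On the gp130 KO array they had 0.18 and 0.24, past that half-width.

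The remaining mitotic genes were close on both knockout arrays, except Cdc25b. Its log2 ratio of gp130 KO to LIFR KO was 0.17, past the 0.146 half-width of a ratio. Cdc20 gave 14927, 18336 and 18232, 1.23-fold and 1.22-fold higher. Mki67, the gene of the proliferation marker Ki-67, gave 12714, 15788 and 15128, 1.24-fold and 1.19-fold higher, and its second probe had log2 ratios of 0.21 and 0.14. Birc5, the gene of survivin, gave 18149, 20112 and 20103, and its 3 probes lay between 0.10 and 0.18 on both arrays. Top2a gave 3970.3, 4293 and 4005. Cdc25b and Cdc25c, phosphatases that activate Cdk1, gave 1309, 1339 and 1511, and 211, 254 and 252.

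Bub1, a kinase of the spindle checkpoint, was the member with repeated spots. Its probe was printed 10 times on each array. The spots ranged from 3202 to 3598 with a median of 3321 on the wildtype array, from 4054 to 4336 with 4276 on the LIFR KO array and from 3547 to 3877 with 3736 on the gp130 KO array. The spots of the LIFR KO array lay above all those of both other arrays, while those of the wildtype and gp130 KO arrays overlapped. The ratios were 1.27-fold on the LIFR KO and 1.11-fold on the gp130 KO array. Spots of 1 array share its RNA and are not replicates of a genotype.

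**Figure D4:**
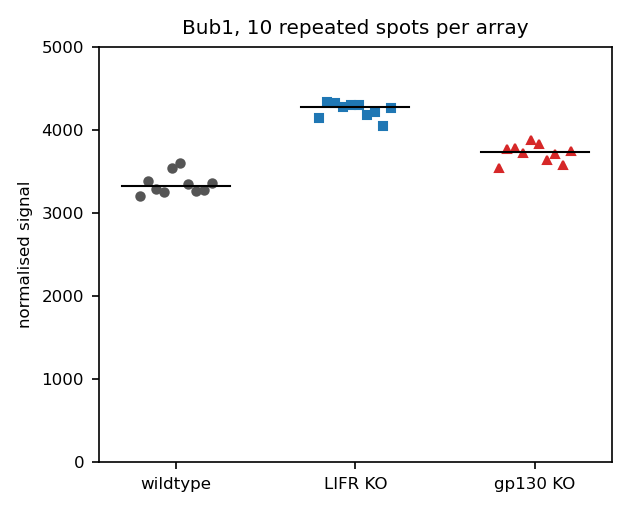
Normalised signal of each of the 10 Bub1 spots on the wildtype, LIFR KO and gp130 KO arrays, with the median as a line. The LIFR KO spots (4054 to 4336) lie above the gp130 KO spots (3547 to 3877) and the wildtype spots (3202 to 3598).

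Members were also read against the scanner's error. On the LIFR KO array 5 of 44 differed from wildtype beyond the 95% limit of that error, Ccnd1, Ccnd3, Cdc6, Cdkn1b and E2f2, against 21.2% of all 13112 genes well above background on all 3 arrays and 16.2% of those in the brightness range of the members. On the gp130 KO array 4 (9.09%) did, Aurkb, Ccnd1, Ccnd2 and Cdkn1b, against 9.97% and 7.29%. Neither count is a result about the members. Where a member had several probes above background, 11 genes in all, the log2 ratios of its probes differed by a median of 0.12 on the LIFR KO and 0.10 on the gp130 KO array. They differed by over 0.2 for Ccnd3, Cdc6, Cdk1 and Mybl2 on the first and for Cdk1 and Mybl2 on the second.

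The knockout arrays were also set directly against each other. On the gp130 KO array 2 members were at least 1.2-fold higher than on the LIFR KO array, Cdt1 and Cdkn2c, against 18.8% of all 14758 genes compared. Lower by at least 1.2-fold were 4, E2f2, Ccne1, Ccnd3 and Cdc6, with log2 ratios of -0.96, -0.63, -0.50 and -0.31, against 13.0% of all genes. In the brightness range of the members the shares were 7.95% and 11.5%, beside 4.55% and 9.09% of the members. At 1.5-fold stood 2 members, E2f2 and Ccne1, against 9.8% of all genes, and at 2-fold none, against 3.36%. The G1/S median was 0.11 and the G2/M median 0.08, beside 0.03 for all genes and -0.005 for those in the brightness range of the members. With normexp fitted on all spots the G1/S and G2/M medians were 0.60 and 0.53.

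Wider lists gave the background of the pathway, to be read against the shares of all genes, 18.8% higher and 22.2% lower on the LIFR KO array and 15.9% and 13.0% on the gp130 KO array. Of 58 other G1/S and S phase genes compared, 15 were higher and 4 lower by 1.2-fold or more on the LIFR KO array, with a median of 0.10, and 10 were higher and 3 lower on the gp130 KO array, with a median of 0.11. The higher genes were 25.9% and 17.2% of the list, the second near the share of all genes. Chek1, a checkpoint kinase, gave 3701, 2188 and 3011 on the wildtype, LIFR KO and gp130 KO arrays, 1.69-fold and 1.23-fold lower. Fen1, a flap endonuclease, was 1.39-fold and 1.27-fold higher. Also by rank, Casp8ap2 was 1.42-fold higher and Cdca7 and Cdc7 were 1.43-fold and 1.34-fold lower on the LIFR KO array. On the gp130 KO array Orc1, of the origin recognition complex, was 1.15-fold lower.

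Of 70 other G2 and M phase genes, 18 were at least 1.2-fold higher on each knockout array, with 3 lower on the LIFR KO and none lower on the gp130 KO array, and a median of 0.13 on both. This is 25.7% of the list, against 18.8% and 15.9% of all genes and 20.6% and 11.9% of those in the brightness range of the members. Ncapd2, a subunit of condensin, gave 5017, 7423 and 7229, 1.48-fold and 1.44-fold higher. Kifc1, a mitotic motor protein gene, was 1.48-fold and Ccnf, the gene of cyclin F, 1.38-fold higher on the LIFR KO array. Kif2c and Nusap1, of the mitotic spindle, were 1.36-fold and 1.35-fold higher on the gp130 KO array. Hjurp, which places the centromere histone, gave 368, 196 and 321, 1.88-fold lower on the LIFR KO array and 1.15-fold lower on the gp130 KO array. Trip13 had log2 ratios of -0.38 and -0.25 on the LIFR KO and gp130 KO arrays. Troap was 1.24-fold lower on the LIFR KO and G2e3 1.13-fold lower on the gp130 KO array.

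The other cell cycle control genes included genes more than 2-fold from wildtype. Of 26 compared, 11 were higher and 3 lower by 1.2-fold or more on the LIFR KO array, and 6 higher and 6 lower on the gp130 KO array, with medians of 0.19 and 0.08. The higher genes were 42.3% and 23.1% of the list, against 18.8% and 15.9% of all genes, and the lower ones 11.5% and 23.1%, against 22.2% and 13.0%. Ccng2, the gene of a cyclin linked to cell cycle arrest, gave 76.1, 228 and 204, with log2 ratios of 1.58 and 1.42. Hbp1, a repressor of cell cycle genes, gave 571, 1488 and 1329, 2.61-fold and 2.33-fold higher. Cdkn2d, the gene of the inhibitor p19, gave 2086, 5150 and 2363, 2.47-fold higher on the LIFR KO array, with the gp130 KO array near wildtype. Cdkn1a, the gene of the inhibitor p21, gave 440.1, 469 and 229, 1.92-fold lower on the gp130 KO array, with the LIFR KO array near wildtype. Btg1, an antiproliferative gene, was 1.69-fold higher on the gp130 KO array at 44085 against 26122 on the wildtype array. Among the lower genes E2f5 was 1.38-fold and 1.26-fold lower, Lin9 and E2f3 were 1.32-fold and 1.23-fold lower on the LIFR KO array, and Cdk6 was 1.27-fold lower on the gp130 KO array.

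**Figure D5:**
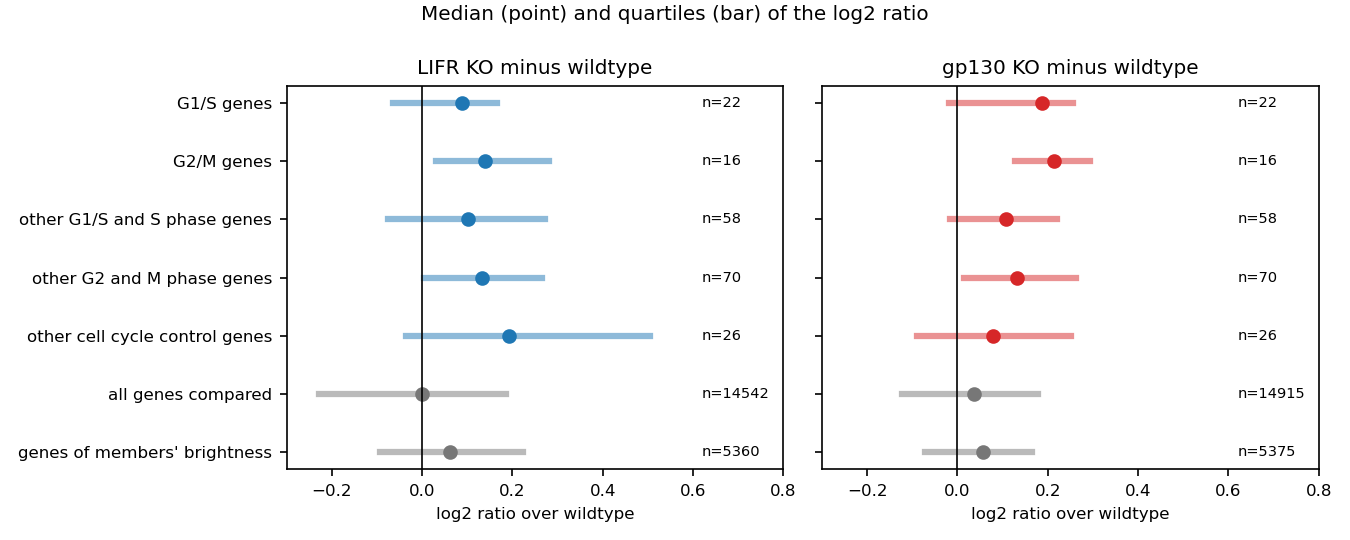
Median (point) and quartiles (bar) of the log2 ratio over wildtype for the members by phase, the wider lists, all genes compared and the genes of the members' brightness, for LIFR KO (left) and gp130 KO (right). The G1/S and G2/M medians stand at 0.09 and 0.14 on the left and at 0.19 and 0.21 on the right, against 0.00 and 0.04 for all genes.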

How the data were processed

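Per the file headers, the arrays were Agilent design 026655, extracted with Feature Extraction 11.0.1.1, while the submitters' processing notes name version 9.1. The deposited intensity is the processed signal, per the file headers written by the scanner software, background-subtracted and not scaled between arrays. The deposited flags, another kind of value per the file headers, mark outlier spots and spots well above background. The deposited series matrix holds the authors' log2 values, which have array medians that agree to 2 decimals, 5.39, by a method not given in the sources used here. Outlier spots (97, 222 and 138) were left out, log2 signals of spots averaged per probe, and each array's 75th percentile over probes subtracted. Accessions were matched without versions to RefSeq transcripts (GRCm38.p6), and each gene was read from its brightest probe. A gene was compared when well above background on at least 1 of the 2 arrays. Where 1 array was not, its lowest signal well above background set a bound. The ratio code was tested on simulated data. Members and lists were chosen with earlier results of these data known. The genes named are all 46 members, Lifr, Il6st and the 3 farthest each way per wider list and knockout, of which some are not reported here. Python 3.11.15, R 4.3.3 and limma 3.58.1 were used. Of 14 alternatives, 3 were added after the data were seen.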

Additional observations from a re-analysis of the deposited data

Results flagged for a closer look

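Ccne1, the gene of cyclin E1, went opposite ways on the knockout arrays. Its log2 ratio to wildtype was 0.35 on the LIFR KO array and -0.28 on the gp130 KO array, each past 1.2-fold. Its second probe gave 0.34 and -0.19. With normexp fitted on all spots the LIFR KO value was -0.02. With 1 array per genotype this difference was not tested.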

How the results depend on the processing

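Of 186 values under the alternatives, for 15 medians and counts, 174 stayed within the 0.146 half-width of a ratio or within 1.5 times the count. That half-width is wider than the LIFR KO medians against wildtype and the G1/S minus G2/M differences, so staying within it says little about them. The alternative filters on dim probes could not move these values, since the 44 measured members were well above background on all 3 arrays. Scaling by 1 factor per array cancels in the G1/S minus G2/M difference. Normexp background correction fitted on all spots moved the LIFR KO array: the G1/S and G2/M medians against wildtype became -0.39 and -0.30, with 4 members higher and 27 lower by 1.2-fold, and the gp130 KO minus LIFR KO medians became 0.60 and 0.53, with 33 members higher. Fitted without the spots under stray signal, chosen after seeing the data, normexp gave medians of 0.08 and 0.14 and 9 higher and 3 lower members on the LIFR KO array. With quantile normalisation and with the authors' series matrix values, 8 members were lower on the LIFR KO array and 6 higher on the gp130 KO array. With the 75th percentile over spots, also chosen after seeing the data, 5 were lower on the LIFR KO array. No scaling moved the median of all genes by over 0.1. It was 0 for LIFR KO against wildtype, both in the main setting and with normexp fitted on all spots. Ratios that are bounds of 0 can hold it there. With normexp fitted on all spots 40.0% of all genes were at least 1.2-fold higher and 26.9% lower on the LIFR KO array. In the main setting the shares were 18.8% and 22.2%. The G1/S minus G2/M difference ranged from -0.09 to -0.04 on the LIFR KO and from -0.06 to 0.00 on the gp130 KO array over 14 alternatives, which include counting Ccna2 or the D-type cyclins in G1/S and leaving out Mybl2 and E2f8 or E2f2 and Cdc6. Over all settings 15 of 44 members kept their sign on the LIFR KO and 40 on the gp130 KO array, and without the normexp fitted on all spots 37 and 40. No replicate could be left out with 1 array per group, which limits the precision of every value. No paired analysis was possible because each group has 1 array.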
